A study of Mus musculus with 22 samples.

Results

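Blastocysts of the CD1 and B6 mouse strains that had grown in ISM1 medium were compared on 6 arrays, 3 per strain, out of the 22 arrays of the series. The arrays were chosen by their labelled strain and medium alone. RNA came from embryos at embryonic day 3.5, and the labels describe the arrays of a group as biological replicates. They do not say how many embryos gave the RNA of 1 array or whether embryos were pooled. The other groups used here were CD1 and B6 blastocysts of the same day grown in HTF medium or in vivo, with 3 arrays per strain each, and those grown in KSOM medium, with 3 B6 arrays and 1 CD1 array. All groups were untreated apart from the medium as far as the labels say, and no transgene or deletion is named. Genes on the X and Y chromosomes were left out.

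B6 (C57BL/6) is an inbred strain, so its embryos are genetically alike. CD1 is an outbred stock, in which embryos differ genetically from each other. ISM1 and HTF are embryo culture media made for human in vitro fertilization, and KSOM is a medium optimised for mouse embryos. A blastocyst is the last stage before implantation. Its outer trophectoderm pumps fluid into a cavity and will form the placenta, and its inner cell mass divides into the epiblast, the source of the fetus, and the primitive endoderm, which lines the yolk sac. The labels give a comparison of strains in the same medium, which asks which transcripts differ with genetic background when the culture is held constant.

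A gene was tested if its probe was detected (detection p under 0.05) on at least 3 of the 22 arrays. This left 9029 autosomal genes out of 9345 tested, each represented by its brightest kept probe. Values are log2 normalized intensities, so that a difference of 1 is a doubling. Levels of different probes are not comparable with each other. A gene was called at a limma adjusted p under 0.05, two-sided, with the spread pooled over all 22 arrays. The median standard error of the strain difference in ISM1 was 0.43.

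Before normalization, the median intensity of the 3 B6 ISM1 arrays was 146, 142 and 145, and that of the 3 CD1 ISM1 arrays was 134, 119 and 98.5. The CD1 arrays were thus all dimmer than the B6 arrays. The numbers of detected probes overlapped between the strains, from 10055 to 10362 on the B6 arrays and from 10000 to 10896 on the CD1 arrays. On 2 arrays the profile stood apart from its group. B6 replicate 3 and CD1 replicate 1 correlated more closely with each other across genes (Pearson r = 0.970) than either did with any array of its own strain, where the highest values were 0.941 and 0.912. B6 replicates 1 and 2 correlated at 0.981, and CD1 replicate 2 was closer to B6 replicate 2 (0.973) than to either CD1 array. The labels name no feature that these arrays share. Whether the 2 arrays were exchanged was checked with 1 Y-linked transcript, which was left out of all gene counts. It was detected on all 12 B6 arrays of the series and on 1 of the 10 CD1 arrays, and B6 replicate 3 and CD1 replicate 1 each lay with their labelled strain. The transcript was chosen after values were seen. Another Y-linked transcript was detected on all 3 ISM1 arrays of each strain, and a further one on 2 B6 and 0 CD1 ISM1 arrays. Whether such signals follow strain, embryo sex or probe binding was not tested, so this check does not settle an exchange.

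**Figure D1:**
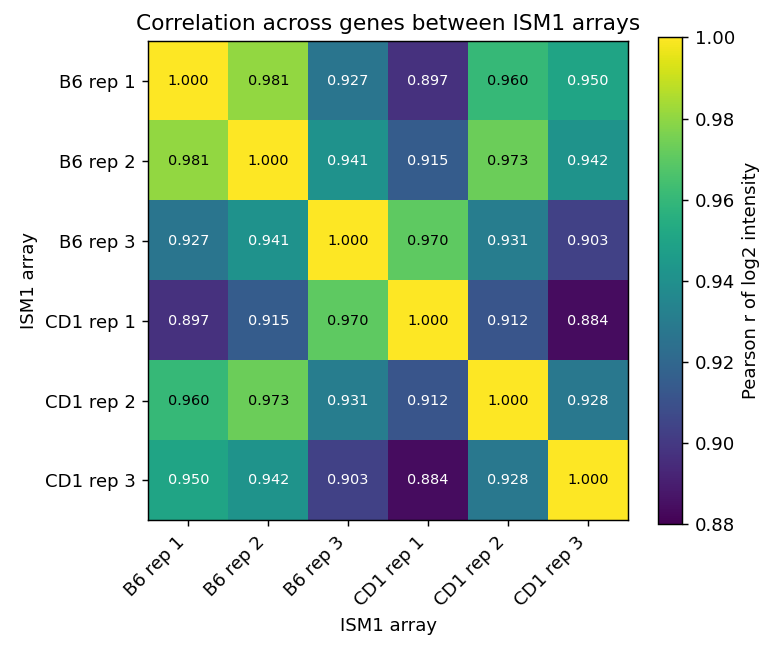
Pearson correlation of log2 intensity across autosomal genes for each pair of the 6 ISM1 arrays (both axes: arrays). The pair of B6 replicate 3 and CD1 replicate 1, from different strains, reaches 0.970, and the 3 CD1 arrays lie between 0.884 and 0.928 among themselves.

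The labelled stage was checked against markers. Of 12 genes that mark the 3 cell types of the blastocyst, 9 were detected on all 6 ISM1 arrays, among them Cdx2, Gata3, Eomes, Krt8 and Krt18 of the trophectoderm, Pou5f1 and Nanog of the inner cell mass, and Gata6 and Pdgfra of the primitive endoderm. Sox2 was detected on 5 arrays, Sox17 on 4 and Gata4 on 2 CD1 arrays only. Of 15 markers of cumulus cells, which surround the egg at collection, 13 were detected on no ISM1 array, including the defining genes Has2, Ptx3, Amh and Fshr. The other 2, Cyp11a1 and Gja1, were detected on all 6 arrays, Gja1 at 14.46 to 14.90. Of 16 markers of the reproductive tract epithelium 9 were detected on none. Foxj1 and Wfdc2 of that list were detected on all 6 arrays, Wfdc2 at 8.73 to 12.23. Of 12 markers of blood and immune cells 9 were detected on none, including the leukocyte gene Ptprc. Laptm5 of the blood list was detected on all 6 arrays, at 8.18 to 11.19. The summed log2 level of the reproductive tract markers ran from 84.5 to 86.1 on B6 arrays and from 84.7 to 90.2 on CD1 arrays, and that of the blood markers from 61.0 to 63.9 and from 61.4 to 65.3. The part of these cell types in the strain differences below was not tested.

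No autosomal gene was called between CD1 and B6 in ISM1. With limma, 0 of 9029 genes (0%) passed the adjusted threshold, and the smallest adjusted p was 0.408. At an unadjusted p under 0.05, 225 genes (2.49%) were found, 110 higher in CD1 (1.22%) and 115 lower (1.27%). The groups did not overlap for 728 genes (8.06%), with CD1 above B6 for 342 (3.79%) and below it for 386 (4.28%). The count of 225 moved with the processing, to 416 (234 higher, 182 lower) with the log2 median intensity of the arrays as a covariate and to 637 (44 higher, 593 lower) with median scaling. It ran from 121 without B6 replicate 1 to 363 without CD1 replicate 2, and was 136 without B6 replicate 2. The intensity covariate and median scaling called 0 genes after adjustment. The individual genes below are therefore given as values, not as changes. They are the 10 higher and the 10 lower genes with the smallest p among those whose groups did not overlap. Their p-values describe the choice and support nothing by themselves. What the choice did not use is their strain difference on the 12 HTF and in vivo arrays, which share no array with ISM1.

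On those 12 arrays, 18 of the 20 genes had the sign they had in ISM1, in HTF and in vivo alike, against 42.4% of all 9029 genes. The averaged HTF and in vivo difference had the same sign and an unadjusted limma p under 0.05 for 13 of the 20, 8 of the higher and 5 of the lower genes, against 7.69% of all genes. By themselves, 826 genes (9.15%) had such a p on those arrays, 407 with CD1 higher (4.51%) and 419 lower (4.64%). The pooled spread of a gene enters both comparisons, so the p-values are not independent of the choice, while the signs are. The exceptions in sign were Luzp2 and Cry2. In the whole set of 225 genes, 183 (81.3%) kept the sign on the averaged HTF and in vivo arrays, against 63.5% of all genes, and 80 (35.6%) did so with an unadjusted p under 0.05. Of the 225, 3 genes (1.33%) had the opposite sign with such a p.

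**Figure D2:**
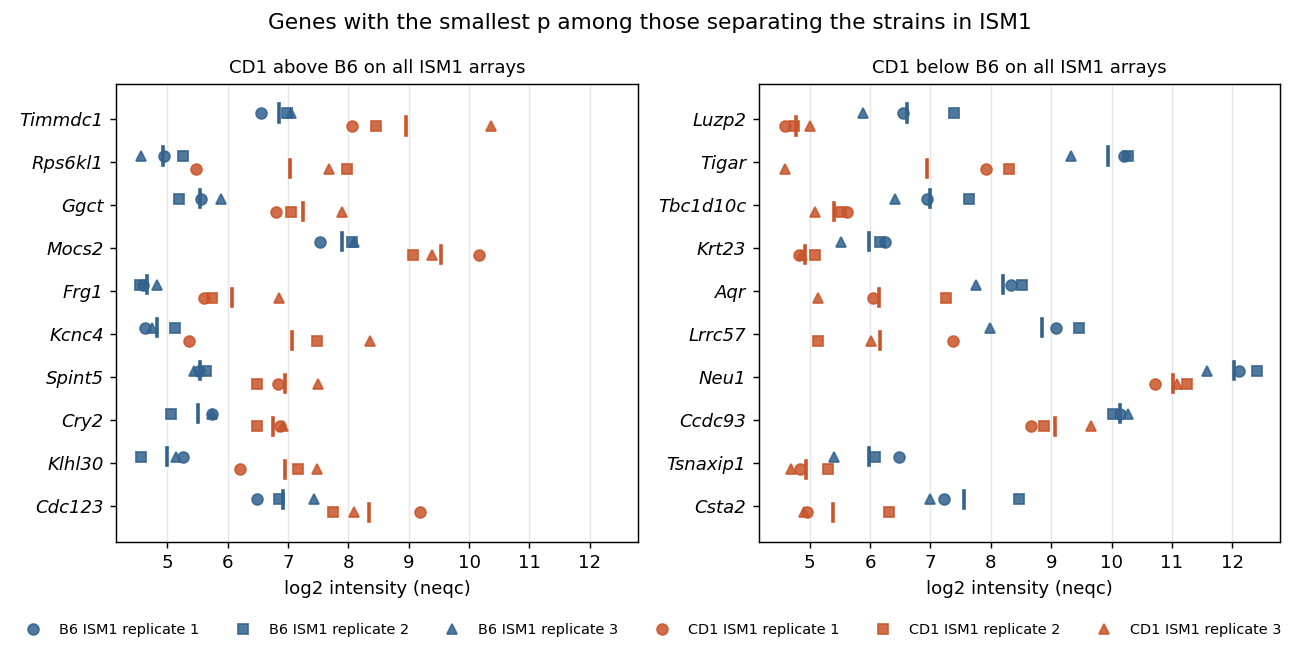
Log2 intensity (x axis) on each of the 6 ISM1 arrays for the 20 genes with the smallest p among those separating the strains, CD1 above B6 at left and below at right. Points are arrays, with their shape giving the replicate, and vertical ticks are group means; no CD1 point falls within the B6 range, as the choice of genes required.

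Timmdc1, Ggct, Tigar and Mocs2 act in mitochondria and metabolism. Timmdc1, an assembly factor of respiratory complex I, stood at 6.55, 6.98 and 7.04 in the 3 B6 arrays and at 8.07, 8.45 and 10.36 in the 3 CD1 arrays. All CD1 arrays lay over 1 log2 unit above the highest B6 array, and replicate 3 lay highest. The difference was 2.10 ± 0.45 (SE, n = 3 per strain; limma unadjusted p = 0.00018, adjusted p = 0.561). It was 1.80 in HTF and 1.33 in vivo, and averaged over both it was 1.564 ± 0.31 (limma unadjusted p = 0.000107, adjusted p = 0.152).

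Ggct encodes gamma-glutamylcyclotransferase, which acts in the breakdown of glutathione. Its level was 5.55, 5.20 and 5.89 in B6 and 6.81, 7.04 and 7.90 in CD1. The lowest CD1 array was thus above the highest B6 array by most of a log2 unit. The ISM1 difference of 1.70 ± 0.40 (SE) was matched by 1.67 in HTF and 1.80 in vivo. The average of HTF and in vivo, 1.74 ± 0.28, had a limma adjusted p of 0.0397 and was the single autosomal gene called on those 12 arrays (1 of 9029, 0.0111%). That call rested on 1 Y-linked gene in the adjustment, and Ggct was not called when p-values were adjusted over autosomal genes alone. Other Ggct probes gave smaller ISM1 differences of 0.88, 0.34 and 0.07, the latter pair from probes near the detection limit.

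Tigar, a fructose bisphosphatase that diverts sugar from glycolysis, was among the lower genes. B6 arrays read 10.21, 10.27 and 9.32 and CD1 arrays 7.92, 8.30 and 4.59. CD1 replicate 3, at which the probe was not detected, lay far below the other two. The difference was -2.997 ± 0.78 (SE), or -1.82 without CD1 replicate 3, with -1.27 in HTF and -1.58 in vivo.

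Mocs2, which encodes molybdopterin synthase, needed for the molybdenum cofactor, measured 7.52, 8.07 and 8.10 in B6 and 10.16, 9.06 and 9.39 in CD1. The difference of 1.64 ± 0.40 was followed by 1.09 in HTF and 0.93 in vivo. CD1 replicate 1 was highest here, whereas CD1 replicate 3 was highest for Timmdc1 and Ggct.

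Aqr, Cdc123 and Frg1 act in RNA processing and translation, and lay on both sides of the comparison. Aqr, an RNA helicase of the spliceosome, read 8.33, 8.51 and 7.76 in B6 and 6.04, 7.25 and 5.13 in CD1. Every CD1 array was below every B6 array, and the CD1 arrays spread over more than 2 log2 units. The difference of -2.06 ± 0.56 (SE) in ISM1 stood beside -1.58 in HTF and -2.13 in vivo, with an average over both of -1.85 ± 0.40 (limma unadjusted p = 0.000212, adjusted p = 0.152). A second kept Aqr probe differed by only -0.56 in ISM1.

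Cdc123, a chaperone for assembly of the translation initiation factor eIF2, was at 6.48, 6.85 and 7.43 in B6 and at 9.19, 7.75 and 8.09 in CD1, a difference of 1.42 ± 0.42. The gap between the highest B6 and the lowest CD1 array was small, and 0.68 and 0.91 were measured in HTF and in vivo. Frg1, linked to RNA processing, gave 4.60, 4.55 and 4.83 in B6 and 5.61, 5.75 and 6.84 in CD1. It was detected on 0 of 3 B6 arrays and on all 3 CD1 arrays, so its mean level was at least 1.57-fold higher on these CD1 arrays. This bound, here and below, sets the strain with no detection to the lowest signal of probes detected on each of its arrays. Where its own signal is higher, that signal is used. The other strain is taken at its mean over 3 arrays. The bound describes the arrays measured, carries no sampling error and is not a lower confidence limit.

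Neu1 and Ccdc93 belong to lysosomes and endosomes, and both were lower in CD1. Neu1, the lysosomal sialidase, was at 12.11, 12.41 and 11.58 in B6 and 10.73, 11.24 and 11.08 in CD1. All 6 arrays detected it, and the difference was -1.01 ± 0.28 (SE), or 2.02-fold. In HTF it was -0.26 and in vivo -0.54. Ccdc93, a subunit of a complex that returns cargo from endosomes to the cell surface, read 10.13, 10.03 and 10.27 in B6 and 8.66, 8.89 and 9.66 in CD1, where replicate 3 came closest to B6. The difference of -1.08 ± 0.30 was -0.87 in HTF and -0.75 in vivo, and its other two probes gave -0.84 and -0.40 in ISM1.

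The protease inhibitors Spint5 and Csta2 lay on opposite sides. Spint5, of the Kunitz family of serine protease inhibitors, measured 5.53, 5.64 and 5.44 in B6 and 6.84, 6.49 and 7.50 in CD1, a tight B6 group and a higher, wider CD1 group. It differed by 1.41 ± 0.38 (SE), with 0.92 in HTF and 1.03 in vivo. Csta2, of the cystatin A family of cysteine protease inhibitors, measured 7.23, 8.47 and 6.99 in B6 and 4.95, 6.31 and 4.90 in CD1. It was detected on all 3 B6 arrays and on 1 CD1 array, and differed by -2.17 ± 0.64, with -0.78 in HTF and -1.97 in vivo.

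Rps6kl1, a relative of the ribosomal S6 kinases, was detected on 0 of 3 B6 arrays and on all 3 CD1 arrays. Its values were 4.95, 5.26 and 4.57 in B6 and 5.47, 7.98 and 7.67 in CD1, where replicate 1 lay near the B6 arrays. The level in CD1 was at least 3.08-fold higher. The fitted difference was 2.11 ± 0.48 (SE) and that in HTF 2.32, where the probe was again detected on 0 B6 and 3 CD1 arrays. In vivo it was 0.45, with the probe detected on no array of either strain. Leaving out CD1 replicate 1, 1 of the 2 arrays that stood apart, made the ISM1 difference 2.90 with a limma adjusted p of 0.000735. Leaving out any other 1 of the 6 arrays gave 1.65 to 2.28, with a limma adjusted p of at least 0.8097.

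Klhl30, of the kelch-like family, was also detected on all 3 CD1 arrays and on 0 B6 arrays, at 5.25, 4.57 and 5.14 in B6 and 6.20, 7.17 and 7.47 in CD1. This put CD1 at least 2.89-fold higher, and the fitted difference of 1.96 ± 0.56 (SE) stood beside 1.21 in HTF and 1.10 in vivo. Lrrc57, a leucine-rich repeat protein, measured 9.08, 9.46 and 7.99 in B6 and 7.38, 5.13 and 6.01 in CD1. The difference was -2.67 ± 0.74 in ISM1, -1.66 in HTF and -1.98 in vivo.

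A smaller set of the 20 genes had a strain difference in ISM1 that was not seen at that size on the other arrays. The difference itself was tested as the ISM1 strain difference minus the mean of HTF and in vivo. With limma 0 of 9029 genes were called for it (0%), and 105 (1.16%) had an unadjusted p under 0.05, 50 higher in CD1 in ISM1 (0.554%) and 55 lower (0.609%). Among these 105 were 5 of the 20 named genes. They were Luzp2, Cry2, Kcnc4, Tbc1d10c and Krt23. Since this contrast holds the ISM1 arrays on which the genes were chosen, these p-values are a description.

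Luzp2, a leucine zipper protein, had the smallest p in ISM1. It read 6.55, 7.38 and 5.88 in B6 and 4.59, 4.74 and 5.01 in CD1, detected on all 3 B6 arrays and on no CD1 array. The mean of the B6 arrays was thus at least 2.32-fold higher. The fitted difference was -1.82 ± 0.36 (SE; limma unadjusted p = 8.73e-05, adjusted p = 0.408), against 0.35 in HTF and 0.06 in vivo. The ISM1 difference minus their mean was -2.03 ± 0.44 (limma unadjusted p = 0.000238, not called after adjustment). On the 6 HTF and 6 in vivo arrays, the probe was detected on 0 B6 arrays and on 1 CD1 array in each condition. It was detected on 0 KSOM arrays. Luzp2 thus met the filter of 3 arrays only through the B6 ISM1 arrays, where it was high.

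Cry2, a repressor of the circadian clock, was at 5.74, 5.06 and 5.74 in B6 and at 6.87, 6.49 and 6.91 in CD1. The difference of 1.25 ± 0.34 (SE) in ISM1 stood against 0.16 in HTF and -0.43 in vivo. In HTF the Cry2 probe was detected on 1 B6 and 1 CD1 array, and in vivo on 2 B6 arrays and 0 CD1 arrays. The differences outside ISM1 thus lie largely between undetected values. Kcnc4, a voltage-gated potassium channel, read 4.62, 5.12 and 4.75 in B6 and 5.35, 7.48 and 8.36 in CD1, with CD1 replicate 1 not detected and close to B6. With that undetected CD1 array kept at its measured value in the mean, CD1 was at least 3.13-fold higher, and the fitted difference of 2.23 ± 0.60 compared with 0.03 in HTF and 0.72 in vivo. Without CD1 replicate 1 the ISM1 difference of Kcnc4 was 3.09, with a limma adjusted p of 0.0471. Without any other 1 of the ISM1 arrays it was 1.58 to 2.38, with a limma adjusted p of at least 0.9957.

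Tbc1d10c, a protein that restrains Rab GTPases, measured 6.94, 7.64 and 6.41 in B6 and 5.62, 5.51 and 5.09 in CD1, a difference of -1.59 ± 0.42 (SE). The HTF and in vivo values of -0.35 and -0.58 were smaller and of the same sign. Krt23, an acidic keratin of epithelia, read 6.24, 6.17 and 5.52 in B6 and 4.83, 5.08 and 4.87 in CD1. No CD1 array detected it, which puts the mean of the B6 arrays at least 1.50-fold higher. Its fitted difference was -1.05 ± 0.28, with -0.36 in HTF and -0.27 in vivo. The Krt23 probe was detected on 1 B6 array in HTF and 2 in vivo, and on 0 CD1 arrays in either. Tsnaxip1, a binding partner of translin-associated factor X, read 6.47, 6.08 and 5.40 in B6 and 4.84, 5.30 and 4.69 in CD1. It was detected on 2 B6 arrays and 1 CD1 array, and differed by -1.04 ± 0.30, with -0.32 in HTF and -0.22 in vivo. In HTF and in vivo alike, 2 B6 arrays and 0 CD1 arrays detected it.

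**Figure D3:**
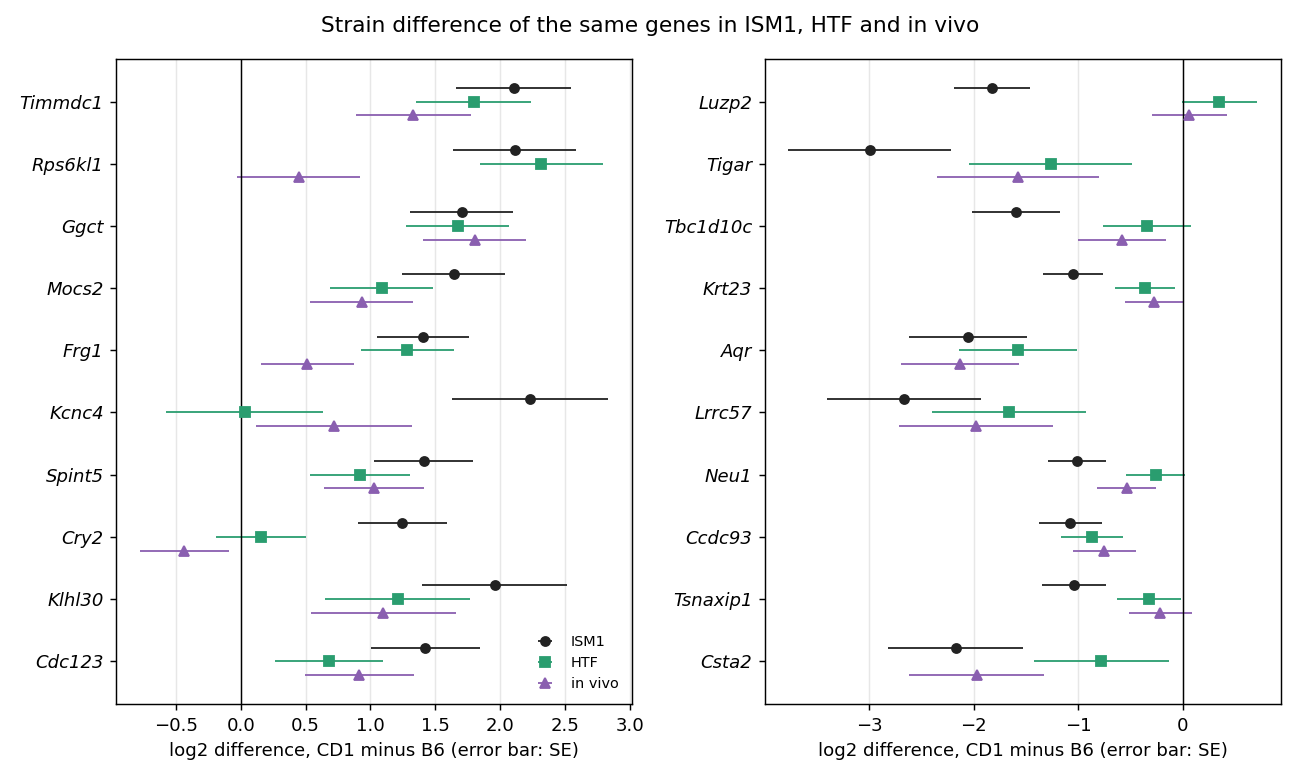
Log2 difference between CD1 and B6 (x axis; error bars, SE) for the same 20 genes in ISM1 (circles), HTF (squares) and in vivo (triangles). Luzp2 and Cry2 lie on the other side of 0, or near it, outside ISM1, and the remaining 18 keep their sign in all 3 conditions.

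The results were recomputed without the arrays that stood apart, B6 replicate 3 and CD1 replicate 1, an alternative chosen after seeing the data. All 20 genes kept their sign, which their choice without overlap between the groups had fixed in advance. The differences were 75.3% to 139% of those on 6 arrays (median 119.5%). One gene, Rps6kl1, was then called (1 of 9029; difference 2.72, limma adjusted p = 0.0073). With only 2 arrays left in each strain, the spread was taken from the other groups.

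The choice of 20 genes reflects 6 arrays, so genes that separated the strains in every condition were also listed, after their values were seen. In ISM1, HTF and in vivo alike, 30 genes (0.332% of all 9029) had no overlap between the strains, in the same direction. CD1 was higher for 13 (0.144%) and lower for 17 (0.188%). By themselves, 13.6% of the 9029 genes did not overlap between the strains in HTF, and 10.4% in vivo. Of the 728 genes separated in ISM1, 129 (17.7%) were separated in the same direction in HTF and 11 (1.51%) in the opposite one, and in vivo the counts were 112 (15.4%) and 10 (1.37%).

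Adi1, an enzyme of the methionine salvage pathway, was among the 13 with CD1 higher. In ISM1 it measured 9.07, 8.55 and 8.42 in B6 and 9.12, 10.12 and 10.77 in CD1, with CD1 replicate 1 barely above B6. Its difference was 1.33 in ISM1, 0.74 in HTF and 1.24 in vivo, and a second probe gave 1.62 in ISM1. Foxj2, a forkhead transcription factor, had 5.76, 5.55 and 6.95 in B6 and 8.83, 7.14 and 7.17 in CD1, with differences of 1.62, 0.72 and 1.75 in the 3 conditions. Ndfip1, an adaptor of Nedd4-family ubiquitin ligases, was close within strains, at 12.20, 11.95 and 12.07 in B6 and 12.71, 12.84 and 12.75 in CD1. Its difference was 0.69 ± 0.23 (SE) in ISM1, 0.57 in HTF and 0.58 in vivo, a small shift that no array crossed.

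Cdipt, which makes the membrane lipid phosphatidylinositol, was one of the 17 with CD1 lower. It read 13.45, 13.30 and 13.41 in B6 and 12.52, 12.80 and 12.77 in CD1, and 2 probes differed by -0.70 and -0.65. Gpn2, a small GTPase-like protein, was at 10.48, 10.44 and 9.47 in B6 and at 8.51, 9.23 and 8.44 in CD1. Its difference of -1.41 ± 0.42 (SE) compared with -1.06 in HTF and -0.96 in vivo. Tomm22, a receptor of the mitochondrial outer membrane import channel, was at 12.76, 12.64 and 12.55 in B6 and at 11.29, 12.06 and 12.37 in CD1, where replicate 3 came close to B6. The 30 genes also held the mitochondrial ribosomal proteins Mrps10 and Mrps15. Timmdc1, Rps6kl1, Ggct, Aqr and Ccdc93 of the 20 named genes belonged to it. For Rps6kl1 the in vivo separation was between values of undetected probes.

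The 1 CD1 array from KSOM gave a further reading that entered no test. It lay beyond all 3 B6 KSOM arrays on the side found in ISM1 for 13 of the 20 named genes (65%). For 1, Luzp2, it lay on the opposite side, at 4.698 against at most 4.697 in B6, with the probe detected on no KSOM array. For the 30 genes separated in the 3 other conditions the counts were 22 (73.3%) and 1. For all 9029 genes the shares were 29% and 19.4%.

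Across the 9029 genes, the ISM1 strain difference correlated with that in HTF at r = 0.396 and with that in vivo at r = 0.319, while HTF and in vivo correlated at 0.376. These are descriptions across genes, which are not independent replicates. No array is shared between any pair of these comparisons.

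**Figure D4:**
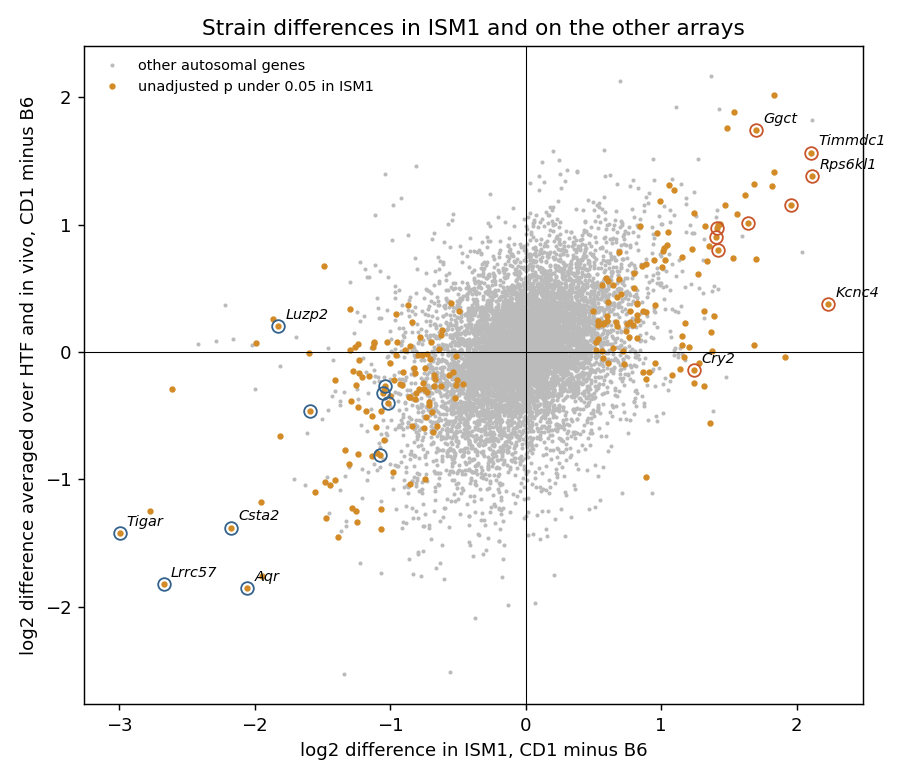
Log2 strain difference (CD1 minus B6) in ISM1 (x axis) against the difference averaged over HTF and in vivo (y axis), 1 point per autosomal gene. The 225 genes with an unadjusted p under 0.05 in ISM1 are orange, the 20 named genes are ringed (red higher, blue lower in CD1), and Luzp2 and Cry2 lie in the quadrants of opposite sign.

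Strain differences read by 1 probe cannot be told apart from differences in how well the probe binds each strain's transcript. Of the 225 genes, 47 had several kept probes. All probes of a gene had the same sign for 38 of the 47, and all had an unadjusted p under 0.05 for 12. Rmdn3, a mitochondrial outer membrane protein among the 30 genes, was one where probes differed, at -1.47 for the probe used and 0.24 for the other.

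For the genes that set up blastocyst lineages, the interval of the ISM1 strain difference included 0. Cdx2, the transcription factor that specifies trophectoderm, read 12.78, 12.72 and 13.30 in B6 and 13.87, 12.54 and 12.27 in CD1. The groups overlapped fully, with a difference of -0.04 (95% interval -0.93 to 0.84) that took the other sign under several alternatives. Pou5f1, a core pluripotency factor, read 10.63, 9.73 and 9.23 in B6 and 8.13, 9.97 and 9.69 in CD1, a difference of -0.60 with a wide interval of -2.54 to 1.33. It was -1.43 in HTF and -2.13 in vivo, and -1.78 ± 0.65 (SE) averaged over both (limma unadjusted p = 0.0137, adjusted p = 0.414). A second Pou5f1 probe gave -0.34 in ISM1 and -1.82 on the averaged arrays. Nanog and Gata6, which oppose each other as epiblast and primitive endoderm part, differed by 0.19 (95% interval -0.56 to 0.95) and -0.17 (-0.81 to 0.47), and Sox2, another pluripotency factor, by -0.20 (-0.83 to 0.44). Hspa5, the main chaperone of the endoplasmic reticulum, differed by 0.32 (-0.49 to 1.14). Nanog, Sox2 and Hspa5 also took the other sign under at least 1 alternative. Nnt, a mitochondrial transhydrogenase, was detected on no array, and H19 was not analysed here.

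Among 27 gene lists with 587 distinct tested genes, no gene was called with limma, and 13 genes (2.21%) had an unadjusted p under 0.05, against 2.49% of all genes. List medians of the strain difference ran from -0.28 to 0.28, beside -0.01 for all 9029 genes. In these bulk samples, fewer cells of a type and less RNA per cell cannot be told apart. Of 19 trophectoderm genes, 4 were higher and 15 lower in CD1, with a median of -0.15. For the inner cell mass list, 9 of 18 were higher (median 0.03), and for primitive endoderm 7 of 15 (median -0.03). P4ha2, a collagen prolyl hydroxylase of the primitive endoderm list, was at 9.46, 9.08 and 9.11 in B6 and 8.96, 8.06 and 8.17 in CD1.

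Several list levels followed the 2 arrays that stood apart rather than the strain. The mean of 16 cholesterol synthesis genes was 10.43, 10.35 and 8.46 in B6 and 8.17, 10.15 and 10.03 in CD1, low on B6 replicate 3 and CD1 replicate 1 and alike on the other 4 arrays. The mean of 20 p53 targets showed the same pattern, at 8.79, 8.77 and 7.71 in B6 and 7.70, 9.15 and 8.48 in CD1. The trophectoderm mean was high on those arrays, at 9.001, 9.34 and 10.17 in B6 and 10.31, 9.20 and 8.48 in CD1. The primitive endoderm mean was also high there, at 8.57 and 8.81 against 7.62 to 7.79 on the other 4. Without both arrays the median strain difference was -0.22 for cholesterol genes (-0.17 with them), 0.06 for p53 targets (-0.03), -0.26 for trophectoderm (-0.15) and -0.18 for primitive endoderm (-0.03). For glutathione transferases it was -0.28 (0.15 with them).

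**Figure D5:**
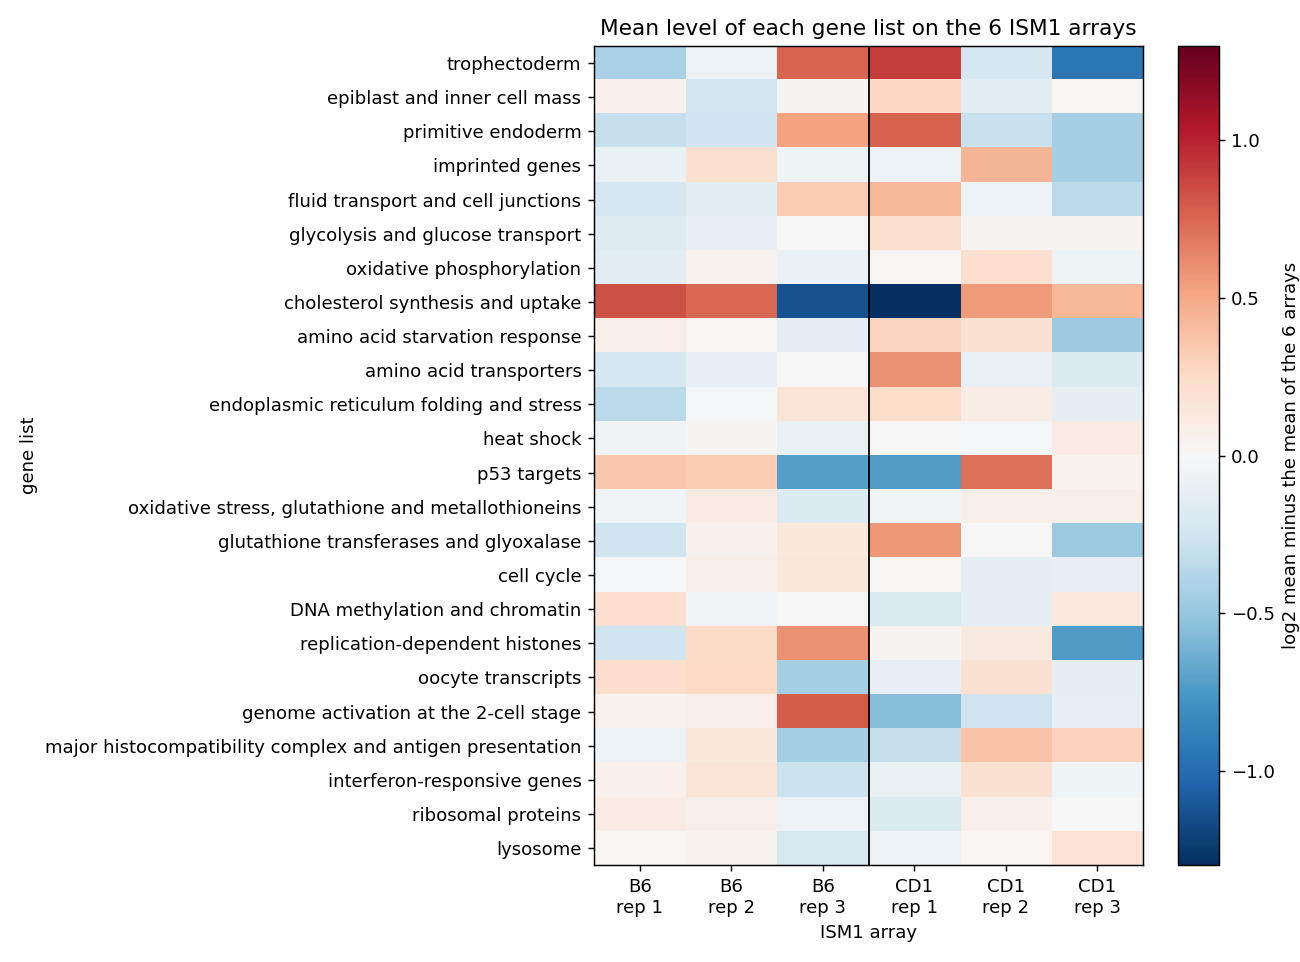
Mean log2 level of each gene list (rows) on the 6 ISM1 arrays (columns), as the difference from the mean of the 6 arrays; red is higher and blue lower. Cholesterol and p53 lists are blue, and trophectoderm and primitive endoderm lists red, on B6 replicate 3 and CD1 replicate 1, next to the line that divides the strains.

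Metabolic and stress lists gave small medians. Of 66 oxidative phosphorylation genes, which include the respiratory chain, 43 were higher in CD1 (median 0.11), with 7 separated upward and 1 downward, against 4398 of all 9029 genes higher, 3.79% separated upward and 4.28% downward. The median was 0.43 in HTF and -0.05 in vivo. Ndufa5, a complex I subunit, was at 9.64, 9.72 and 9.80 in B6 and 10.62, 10.37 and 10.24 in CD1, with a difference of 0.69 in ISM1, 1.26 in HTF and 0.31 in vivo. Of 16 glycolysis genes 12 were higher (median 0.16), and of 17 endoplasmic reticulum genes 11 (median 0.28, or 0.01 without either B6 or CD1 replicate 1). Of 23 genes of the amino acid starvation response, 12 were higher and 11 lower. Atf4, the transcription factor at the head of that response, was lower in CD1, at 7.47, 7.23 and 7.18 in B6 and 5.87, 6.17 and 6.64 in CD1. Its difference of -1.07 ± 0.46 (SE) compared with -1.18 in HTF and -1.60 in vivo.

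For antigen presentation, 13 of 21 genes were higher in CD1 and the median was 0.03, with 3 genes separated upward (3.79% of all genes) and none downward (4.28%). B2m, the light chain of class I molecules, read 7.58, 8.26 and 8.73 in B6 and 8.98, 9.33 and 9.10 in CD1. Its difference was 0.95 ± 0.32 (SE) by each of 2 probes, and it was 0.78 in HTF and 0.66 in vivo. Psmb9, a subunit of the immunoproteasome, read 6.60, 7.46 and 6.97 in B6 and 8.46, 7.76 and 7.77 in CD1. Its difference of 0.99 ± 0.36 stood beside 1.44 in HTF and 0.93 in vivo. Of 27 interferon-responsive genes, 13 were higher and 14 lower, with a median of -0.01.

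In the lysosome list 20 of 33 genes were higher in CD1 (median 0.05), and Neu1, described above, was one of the 13 lower. Tpp1, a lysosomal peptidase, went the other way, at 6.74, 6.90 and 7.39 in B6 and 8.63, 8.15 and 7.70 in CD1. Its difference was 1.15 ± 0.38 (SE), with 0.39 in HTF and 1.11 in vivo. Ctsl, the lysosomal protease cathepsin L, differed by 1.82 ± 0.80, with groups that overlapped between B6 replicate 3 at 7.36 and CD1 replicate 3 at 7.04.

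Genes first transcribed at genome activation in the 2-cell embryo were lower in CD1 for 16 of 20, with a median of -0.21 that was 0.03 in HTF and -0.34 in vivo. Of the 20, 4 were separated downward (4.28% of all genes) and 1 upward (3.79%). Tdpoz1, of a multigene family of TRAF-domain proteins, read 7.64, 8.06 and 9.68 in B6 and 5.94, 5.25 and 5.87 in CD1, highest on B6 replicate 3. Its difference was -2.77 ± 1.12 (SE), and -1.24 and -1.26 in HTF and in vivo. Probes of such families can read their copies together. Without both arrays that stood apart, the list median was -0.05.

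Of 38 replication-dependent histone genes, which are made in S phase, 27 were lower in CD1 and 11 higher. The median of -0.28 in ISM1 stood beside 0.21 in HTF and 0.22 in vivo, and it was -0.28 without the arrays that stood apart. The list means were 6.74, 7.25 and 7.59 in B6 and 7.03, 7.11 and 6.26 in CD1, so that the groups overlapped. Of 26 cell cycle genes 17 were lower (median -0.14). The remaining lists had medians between -0.10 for chromatin genes and 0.26 for 3 blood and immune markers, with 0.25 for amino acid transporters and -0.03 for 55 ribosomal protein genes.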

How the data were processed

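RNA was measured on 22 Illumina one-colour arrays in 8 groups. Per the labels' protocols, 150 ng of RNA was amplified with a 12 h in vitro transcription. The authors deposited linear bead intensities that were not normalized between arrays, with a detection p-value beside each deposited intensity. The authors also deposited a log2 table, quantile-normalized as its values show. Per the submitters' processing notes, BeadStudio 3.2, RMA and lumi were used.

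In R 4.3.3, neqc (limma 3.58.1) corrected the background, added an offset of 16, applied quantile normalization and took log2. Of 25697 probes, 12992 were detected (p under 0.05) on at least 3 arrays. The platform annotation gave 1 symbol to 23978 probes and none to 1719. One linear model with 8 group means was fitted (lmFit, eBayes; 14 residual and 3.51 prior degrees of freedom), and p-values were adjusted by Benjamini-Hochberg over 9345 genes, X and Y genes included. The tests were tested on simulated data.

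Named were called genes without overlap or, with fewer than 8 in a direction, the smallest p up to 10, leaving out clone and model names; for each list its called members or else the 2 with the smallest p, of which the text describes some; and Cdx2, Pou5f1, Nanog, Sox2, Gata6, H19, Nnt and Hspa5. Genes separated in 3 conditions, other probes, the Y-linked transcripts and Ctsl were chosen after values were seen. The arrays compared and the gene lists were chosen with earlier results of these data known. The genome build is not given in the sources used here. The number of arrays limits the precision, and p-values measure the spread between arrays.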

Additional observations from a re-analysis of the deposited data

How the results depend on the processing

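For CD1 against B6 in ISM1, 19 alternatives were run, with 0 genes called by limma in most. Array quality weights called 2 (Luzp2 at -2.27 and Lrrc57 at -3.33, both with an adjusted p of 0.0220). Leaving out 1 array gave 0 to 2 (2 without CD1 ISM1 replicate 1), and leaving out both arrays that stood apart gave 1. The count at an unadjusted p under 0.05, 225, became 520 without a detection filter, 637 with median scaling (44 higher, 593 lower), 535 with array weights, 416 with the intensity covariate, 121 without B6 ISM1 replicate 1, 136 without B6 ISM1 replicate 2 and 363 without CD1 ISM1 replicate 2. Median scaling moved the median of all genes from -0.01 to -0.32. For the ISM1 strain difference minus the other arrays, no alternative called a gene. The averaged HTF and in vivo difference, with 1 call, gave 0 without background correction, with the mean of probes, only compared arrays, a trended robust prior or adjustment over autosomal genes, 32 with median scaling (2 higher, 30 lower), 92 with array weights and 1, not Ggct, with the intensity covariate. Leaving out 1 array gave 0 to 14 (14 and 11 without CD1 in vivo replicates 1 and 3, 2 without CD1 HTF replicate 2). The cause was not tested.

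Same-numbered ISM1 arrays deviated from their group means with correlations of -0.62, 0.45 and -0.43. The highest correlation was 0.72, between B6 replicate 3 and CD1 replicate 1. Deviations from a mean of 3 arrays constrain each other, so these values cannot settle whether the numbers pair the arrays. With the replicate number as a block, 0 genes were called in ISM1, 0 for the difference and 0 for HTF and in vivo averaged.

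All 378 values of the 20 named genes under alternatives kept their direction, and 5 of them were called. Where arrays were only left out or weighted, the direction was fixed in advance, since the ISM1 groups of these genes did not overlap. A changed prior or adjustment could not alter it either. The count of 378 thus holds many values that could not have taken the other sign. Of the other genes named or picked from lists, none of them called, 12 took the opposite sign under some alternative. Median scaling gave Foxj1 -0.13, Nanog -0.11 and Hspa5 -0.18. The mean of probes gave Insig1 0.25 and Sox2 0.11, and array weights gave Cdx2 0.0063. The intensity covariate gave Lgals3 0.23, Foxj1 -0.047, Cd3e -0.077, Cdx2 0.47 and Nanog -0.20. Without 1 array, Cdx2 ran from -0.53 to 0.27, Insig1 from -1.58 to 0.45, Cyp11a1 from -0.062 to 0.50, Slc22a18 from -0.11 to 0.70, Fas from -0.11 to 1.56, Hba-a1 from -0.060 to 0.45, Lgals3 from -1.89 to 0.19, Foxj1 from -0.0015 to 0.43 and Nanog from -0.098 to 0.47. Of the list medians, 476 alternative values stayed within the replicate spread and 37 moved further. Signal limited what could be compared: 6 of the 20 named genes were undetected on every array of 1 strain.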

Other observations

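Genes on chromosome 2 were frequent among those with an unadjusted limma p under 0.01 in ISM1, a pattern seen in the data and given as values. At that threshold, 13 of 48 autosomal genes (27.1%) lay on chromosome 2, which held 749 of the 9029 tested genes (8.3%). At an unadjusted p under 0.05, it had 30 of its 749 genes (4.01%), and chromosome 6 had a larger share, 4.33%. On the averaged HTF and in vivo arrays its share was 10.5%, against 9.15% of all genes. There chromosomes 6 and 19 had larger shares, 12.3% and 13.2%. In the order of the RefSeq annotation, 64 tested genes run from Aqr to B2m, and 8 of them had an unadjusted p under 0.05, against 2.49% of all autosomal genes. The stretch was drawn around genes counted among the 8, since Aqr and B2m are its ends, so the count is a description only. Of these, Tmem87a (1.54), Golm2 (1.48), Catsper2 (1.39) and B2m (0.95) were higher in CD1, and Lrrc57 (-2.67), Aqr (-2.06), Rmdn3 (-1.47) and Exd1 (-0.52) were lower. On the averaged HTF and in vivo arrays 7 of the 8 had the same sign with an unadjusted p under 0.05. Cstdc1, a cystatin-related gene on the same chromosome, was at 5.77, 6.09 and 6.23 in B6 and 5.43, 4.92 and 4.80 in CD1.

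The CD1 arrays varied more among themselves than the B6 arrays in ISM1 and in vivo, while in HTF the strains were close. Each ISM1 group holds 1 of the arrays that stood apart. In ISM1 the median SD over autosomal genes was 0.348 in B6 and 0.498 in CD1, and the CD1 SD was the larger for 68.4% of genes. The values were 0.309 and 0.324 in HTF (51.4%), and 0.458 and 0.614 in vivo (64.1%). The difference in spread was not tested. Of the 9029 autosomal genes, 22 were detected on all 3 CD1 ISM1 arrays and no B6 ISM1 array, and 15 the other way round. Detection on 3 arrays of a group met the filter by itself, so such genes could be tested through that group alone.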
